A study of Mus musculus with 19 samples.

Results

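The 9 genes described here form a set listed as abundant long non-coding RNAs, though their levels differed widely: Malat1, Neat1, Meg3, Rian, Mirg, Miat, Snhg11, Snhg14 and Peg13. They were taken by name from the 48709 genes counted in 19 libraries of mouse hippocampal CA1, and all 9 were among the 19286 genes with enough reads to test. Each library held polyadenylated RNA of CA1 microdissected from male C57B/6J wild-type mice after water maze testing. The young group (n = 6) was 3 months old and the old control group (n = 6) was 16.5 months old, and by the study's methods both received lipid nanoparticles with control oligonucleotides in the dorsal hippocampus. The old anti-miR-mix group (n = 7) was also 16.5 months old and received nanoparticles with inhibitors of 3 miRNAs, miR-181a-5p together with miR-146a-5p and with miR-148a-3p. No young mice with the anti-miR-mix and no mice without injection are analysed here. All groups were injected, and whether the injection itself acted equally at both ages cannot be told.

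Long non-coding RNAs act as RNA molecules and not through a protein. Malat1 and Neat1 stay in the nucleus, Malat1 in nuclear speckles that store splicing factors and Neat1 as the scaffold of paraspeckles, bodies that hold back proteins and RNAs and grow under cell stress. Meg3, Rian and Mirg lie one after the other in the imprinted Dlk1-Dio3 domain, where they are made from the maternal chromosome in 1 direction and carry small RNAs, snoRNAs in Rian and many miRNAs in Mirg. Snhg14 and Peg13 are imprinted too and are made from the paternal chromosome, Snhg14 as the long RNA of the Snrpn-Ube3a domain that runs opposite to Ube3a, and Peg13 from inside an intron of Trappc9. Miat is a nuclear RNA of neurons that binds splicing factors, and Snhg11 is a snoRNA host gene with high expression in neurons.

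The sequences of the treatment are shown first because the seed of each miRNA (bases 2 to 8, in capitals) was later searched in the 9 RNAs. The mature miRNAs, from RefSeq on GRCm38.p6, read:
miR-181a-5p: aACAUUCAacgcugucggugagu
miR-146a-5p: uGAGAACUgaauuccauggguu
miR-148a-3p: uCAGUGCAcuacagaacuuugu
The inhibitors used by the study are DNA-lettered complements of these, with the bases that pair with the seed in capitals, and the control oligonucleotide holds none of the 3 seed matches:
inhibitor of miR-181a-5p: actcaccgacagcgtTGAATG
inhibitor of miR-146a-5p: acccatggaattcAGTTCTC
inhibitor of miR-148a-3p: caaagttctgtagTGCACT
control: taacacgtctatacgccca
All 3 inhibitors matched their miRNA without a mismatch. The inhibitor of miR-146a-5p covered its bases 2 to 21, that of miR-181a-5p bases 3 to 23 and that of miR-148a-3p bases 3 to 21.

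Together the 9 RNAs took between 1.35% and 1.86% of the reads of a library, whose depths ran from 26653511 to 38908947 reads. Read counts ranged from 862 to 1690 per library for Mirg, the lowest, and from 204722 to 298917 for Meg3, the highest, so counting error was small against the spread between libraries. To compare genes, CPM (reads scaled to the library's total after TMM normalisation) were divided by the annotated exonic length. On this CPM per kb scale Meg3 stood at 436 ± 29.2 and Snhg11 at 434 ± 18.5 (mean ± SD over 19 libraries), ranks 29 and 30 of the 19225 tested genes with an annotated length. Meg3 was above Snhg11 in 8 of 19 libraries and the pair did not separate. Malat1 followed at 178 ± 89.6 CPM per kb, then Miat at 80.5 ± 5.75, Peg13 at 73.9 ± 4.89, Rian at 39.0 ± 1.95, Neat1 at 13.6 ± 3.92, Snhg14 at 5.91 ± 0.402 and Mirg at 4.89 ± 0.647 CPM per kb. Neat1 ranked 3446, Snhg14 6992 and Mirg 7822 of the 19225 genes, so not all 9 were among the most abundant on this scale. Snhg11 was above Malat1 in 18 of 19 libraries and their ranges overlapped, as did those of Miat and Peg13 and of Snhg14 and Mirg, while the lowest library of Malat1, Peg13, Rian or Neat1 was above the highest library of the next RNA in this order. A poly(A) library and a length summed over all annotated exons, used or not, both enter these levels. In CA1 tissue, fewer cells of a type and less RNA per cell cannot be told apart in any value given here.

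**Figure D1:**
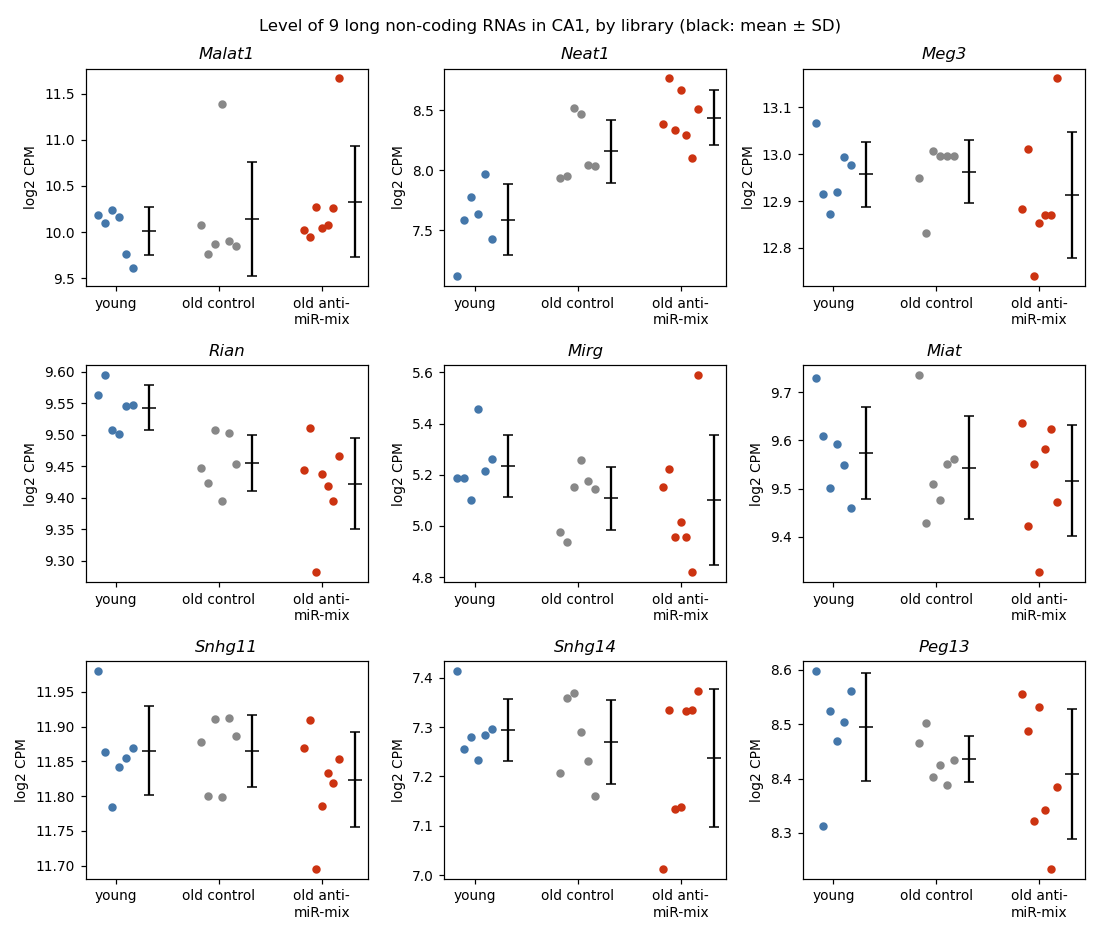
Levels of the 9 RNAs as log2 CPM (y axis, a scale of its own in each panel) in the young, the old control and the old anti-miR-mix group, 1 point per library, with the group mean ± SD in black. Neat1 steps up from the young to the old groups, and Malat1 has 1 old control and 1 old anti-miR-mix library at 11.38 and 11.66, far above the other 17.

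Among the 9 RNAs, Neat1 had the largest differences between groups in all 3 comparisons. Its level was lowest in young CA1, at 7.12, 7.59, 7.78, 7.64, 7.97 and 7.43 log2 CPM in replicates 1 to 6. Old control libraries held 7.93, 7.95, 8.52, 8.47, 8.05 and 8.03 log2 CPM in the same order. Only young replicate 5 reached into the old control range. The 7 old anti-miR-mix libraries held 8.39, 8.77, 8.33, 8.67, 8.29, 8.11 and 8.51 log2 CPM, all above every young library and overlapping with the old controls. The group means were 195, 290 and 350 CPM.

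Neat1 rose with age. Old control exceeded young by 0.57 ± 0.13 (log2 fold change ± SE), 1.48-fold, with an adjusted p of 0.0269 by edgeR's quasi-likelihood test, adjusted over all genes. Neat1 was the 1 member of 9 called in this comparison, against 2.67% of all genes tested, 1.32% as higher. None of the 9 was higher in old control without overlap of the groups, as 1.25% of all genes were. Old anti-miR-mix exceeded young by 0.84 ± 0.13, 1.79-fold, with an adjusted p of 0.000323. Of all genes, 6.2% were called in that comparison, 4.57% as higher, and 1.79% were higher without overlap of the groups. Old anti-miR-mix stood 0.27 ± 0.13 above old control, which did not pass (unadjusted p = 0.0447 in the edgeR fit, adjusted p = 0.461), and the interval of this difference ran from 0.02 to 0.53. These 3 differences share groups and are not independent of each other.

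The age call on Neat1 was near the threshold. It was lost (adjusted p between 0.052 and 0.0695 in edgeR) without young replicate 1, 4 or 6 or without old control replicate 3 or 4, with log2 fold changes from 0.49 to 0.58. With the processing group, a number of 1 to 4 per library that the deposited log2 table had been adjusted for, as a factor in the edgeR fit, the differences were 0.58 (adjusted p = 0.0143) for age, 0.21 (adjusted p = 0.754) for treatment and 0.79 (adjusted p = 0.000134) for old anti-miR-mix against young.

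The 384 exonic bases of Neat1 that lie in other annotated genes, 1.85% of its length, fall in 3 small annotations with a mean of 0 reads each. Gm26906, which shares 1228 exonic bases with the highly read Meg3, also had a mean of 0 reads. Reads on shared bases may be counted for neither gene, so the 0 does not measure transcription there. Its annotation is a single exon on chromosome 19 (GRCm38, chr19:5824708-5845478, minus strand, gene ENSMUSG00000092274, lincRNA) of 20771 bases, and the 3 shorter annotated transcripts lie inside it, of 3004, 1030 and 711 bases. One count per gene therefore cannot tell the short polyadenylated form from the long paraspeckle form.

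Matches to the 3 inhibited miRNAs were counted in the longest annotated transcript of each RNA. A match is the 7-base complement of the seed, TGAATGT for miR-181a-5p, AGTTCTC for miR-146a-5p and TGCACTG for miR-148a-3p, on the sense strand only. The longest transcripts of 19225 tested genes held 0.116, 0.0861 and 0.0992 of these matches per kb, and 26.4%, 24.1% and 26.9% of them held at least 1. Neat1 held 3 of each, 0.144 per kb for every miRNA. Malat1 held 2 for miR-181a-5p, 0.286 per kb, and none for the others. Meg3 held 3, 1 and 1 in the same order, Rian 2 for miR-181a-5p, Snhg14 1 for miR-181a-5p and 1 for miR-148a-3p, Miat 1 for miR-146a-5p and 1 for miR-148a-3p, Mirg 1 for miR-146a-5p, and Snhg11 and Peg13 none. Neat1 is shown because it is the RNA with matches to all 3 that differed between groups. Windows of 30 bases with the match in capitals, numbered from the start of the transcript, are a neighbouring pair for miR-181a-5p and 1 for each of the others, followed by both windows of Malat1, the RNA with most matches per kb to 1 miRNA:
Neat1 bases 1301 to 1307, miR-181a-5p: ggccgtcggctgTGAATGTtccagatgaat
Neat1 bases 1314 to 1320, miR-181a-5p: gaatgttccagaTGAATGTcttgttctggg
Neat1 bases 4365 to 4371, miR-146a-5p: ttatacttacaaAGTTCTCcatgttgtgtc
Neat1 bases 1511 to 1517, miR-148a-3p: tgcgcagcgtgcTGCACTGtagatcgggac
Malat1 bases 3255 to 3261, miR-181a-5p: gataattcagccTGAATGTcttttagaggg
Malat1 bases 3935 to 3941, miR-181a-5p: ctgtagagctgtTGAATGTttgcagctggc
The count of matches describes letters and not binding, and Neat1 did not pass the test between old anti-miR-mix and old control.

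Markers of other cells moved in the same comparisons as Neat1. Of 7 microglia markers, 1 was above young in old control (Cx3cr1, the fractalkine receptor, 0.35 ± 0.07, adjusted p = 0.0108), 3 were higher in old anti-miR-mix than in old control (among them the complement gene C1qa and the growth factor receptor Csf1r), and 6 were higher in old anti-miR-mix than in young. C1qa was the largest of these, 0.63 ± 0.13 above old control (adjusted p = 0.0259) and 1.03 ± 0.13 above young (adjusted p = 6.12e-05), all by edgeR. The summed microglia level ran from 314 to 397 CPM in young, from 391 to 459 in old control and from 448 to 592 in old anti-miR-mix libraries. Of 7 astrocyte markers, Gfap (0.77 ± 0.14) and Slc1a3 (0.20 ± 0.05) were higher in old anti-miR-mix than in young and Gjb6 was below young in old control (fell by 0.26 on the log2 scale). The median log2 fold changes of the 7 were 0.10 for age, 0.10 for treatment and 0.15 for old anti-miR-mix against young. Gjb6 thus went against the median of its list for age. Of 6 oligodendrocyte markers, 4 were lower in old control than in young, among them the myelin genes Mog (fell by 0.55 on the log2 scale), Cnp and Mag, and 0 of the 6 passed in the other comparisons, by edgeR, where 6 and 3 had an unadjusted p under 0.05. The median log2 fold changes of the 6 were -0.44 for age, 0.25 for treatment and -0.19 for old anti-miR-mix against young. The median for treatment was thus opposite in sign to that for age. None of the microglia markers was at 0, the lowest being Aif1 at a mean of 2.45 log2 CPM in young. The part of these cells in the Neat1 difference was not tested.

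Genes of the protein partners and the neighbours of Neat1 were looked up in the same fit. Of all genes, 2.67% were called for age, 0.669% for treatment and 6.2% for old anti-miR-mix against young. Of 11 paraspeckle protein genes, 0 passed in any comparison by edgeR, with 1, 0 and 0 at an unadjusted p under 0.05 for age, treatment and old anti-miR-mix against young, and median log2 fold changes of -0.02, -0.01 and -0.01. Of 6 protein-coding neighbours of Neat1 and Malat1 on chromosome 19, Slc25a45, a mitochondrial carrier gene, was higher in old anti-miR-mix than in old control (0.42 ± 0.09, adjusted p = 0.0259) and than in young (0.34 ± 0.09, adjusted p = 0.022), at a mean of only 2.31 to 2.72 log2 CPM. The neighbours with an unadjusted p under 0.05 in edgeR were 1 of 6 for age, 3 of 6 for treatment and 1 of 6 for old anti-miR-mix against young. The 3 for treatment were Slc25a45, Frmd8 (0.27 ± 0.09, adjusted p = 0.207) and Ltbp3 (0.19 ± 0.08, adjusted p = 0.419), and the 1 for age was Dpf2 (-0.16 ± 0.06, adjusted p = 0.12).

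**Figure D2:**
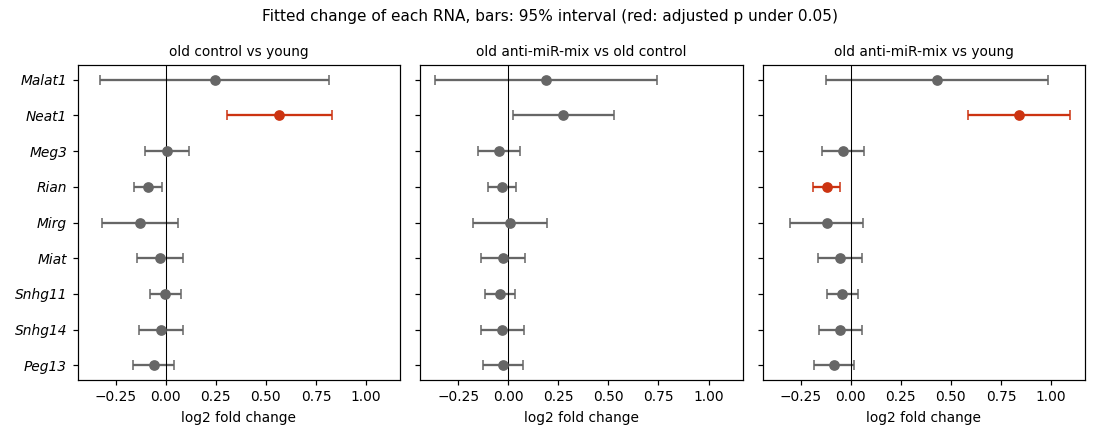
Fitted log2 fold change (x axis) of each RNA in the 3 comparisons, with bars for the 95% interval and red points for an adjusted p under 0.05. Neat1 lies to the right for age and for old anti-miR-mix against young, Rian slightly to the left in the latter, and the bars of Malat1 are the widest.

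Malat1 was set apart by 2 libraries. In young CA1 it ran from 9.61 to 10.24 log2 CPM with a median of 10.13. In old control it ran from 9.76 to 11.38 with a median of 9.89, and in old anti-miR-mix from 9.95 to 11.66 with a median of 10.08. The highest value of each old group came from 1 library, old control replicate 4 and old anti-miR-mix replicate 7, at 2670 and 3243 CPM, which is 2.53 and 3.08 times the median of the other 17 libraries, where Malat1 ranged from 782 to 1234 CPM. The within-group SD of Malat1 was 0.53 on the log2 scale, above that of 99.8% of the 6308 genes with a mean of at least 1000 reads, and 0.19 without those libraries.

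No comparison called Malat1. The log2 fold changes were 0.24 ± 0.29 for age, 0.19 ± 0.28 for treatment and 0.43 ± 0.28 for old anti-miR-mix against young, with adjusted p of 0.717, 0.876 and 0.437 in edgeR. Without both libraries they were -0.14, 0.21 and 0.08, with adjusted p of 0.51, 0.424 and 0.724, so the sign of the age difference turned. Without old anti-miR-mix replicate 7 alone, the treatment difference was -0.16 (adjusted p = 0.853), and without old control replicate 4 alone it was 0.57 (adjusted p = 0.329).

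The genes most like Malat1 over the 19 libraries, after group means were subtracted and among 12780 genes with a mean of at least 100 reads, were Lars2 (r = 0.95), Gm26917 (0.93), Gm15564 (0.92), CT010467.1 (0.92) and Mir6236 (0.90). CT010467.1 is annotated as a ribosomal RNA gene (chr17:39846353-39848827, minus strand) and Gm26917 as a lincRNA next to it (chr17:39843013-39846341, plus strand), and Lars2 encodes the mitochondrial leucyl-tRNA synthetase. In the 2 libraries high in Malat1, CT010467.1 stood at 1819 and 1975 CPM, against 45.5 to 160 CPM in the other 17. Lars2 stood at 690 and 610 CPM against 36.9 to 76.9, and Gm15564 at 166 in both against 3.65 to 13.4 CPM. Over the 17 other libraries alone the r values with Malat1 were 0.39, 0.35, 0.27, 0.20 and 0.34 in the order of the 5 genes. All annotated nuclear ribosomal RNA genes together took 0.184% and 0.200% of reads in these 2 libraries, against 0.00493% to 0.0167% in the others. Total depth in the pair, 32040422 and 27660364 reads, was within the range of the rest. Both libraries belong to processing group 2, which also holds young replicate 2, old control replicate 3 and old anti-miR-mix replicate 2, whose Malat1 levels were 10.10, 9.87 and 9.95 log2 CPM. The part of ribosomal RNA in the Malat1 values was not tested.

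**Figure D3:**
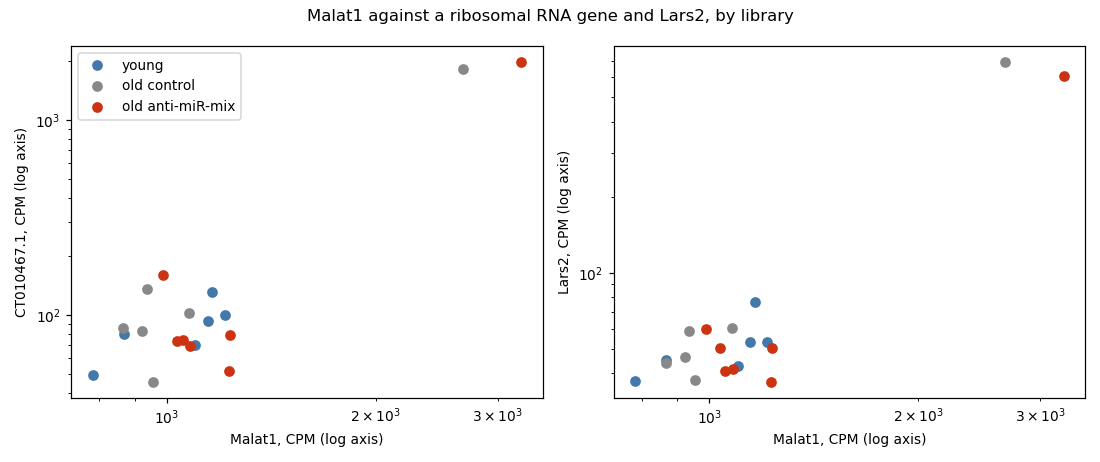
Malat1 in CPM (x axis, log scale) against the ribosomal RNA gene CT010467.1 and against Lars2 (y axes, CPM, log scale), 1 point per library in the colour of its group. Old control replicate 4 and old anti-miR-mix replicate 7 stand alone at the upper right, and the other 17 libraries form 1 cloud.

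Malat1 (chr19:5795690-5802672, minus strand, ENSMUSG00000092341, lincRNA, a single exonic block of 6983 bases) lies beside Neat1. Of 12 nuclear speckle protein genes, Srsf7, a splicing factor gene, was lower in old anti-miR-mix than in young (fell by 0.12 on the log2 scale, adjusted p = 0.0418 by edgeR), and 0 of 12 passed for age or treatment, where 2 and 0 had an unadjusted p under 0.05.

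The imprinted RNAs of chromosome 12 differed little between groups. Meg3 (chr12:109541001-109571726, plus strand) ranged from 12.87 to 13.07 log2 CPM with a median of 12.95 in young, from 12.83 to 13.01 with a median of 12.996 in old control and from 12.74 to 13.16 with a median of 12.87 in old anti-miR-mix libraries. The groups overlapped throughout. Its log2 fold changes were 0.01 ± 0.06 for age, -0.05 ± 0.05 for treatment and -0.04 ± 0.05 for old anti-miR-mix against young, and the intervals of all 3 lay between -0.15 and 0.12.

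Rian (chr12:109603940-109661716, plus strand) was the steadiest of the 9 RNAs, with a within-group SD of 0.05 on the log2 scale, lower than that of all but 13.3% of genes with at least 1000 reads. Its level ran from 9.50 to 9.60 log2 CPM with a median of 9.55 in young, from 9.39 to 9.51 with a median of 9.45 in old control and from 9.28 to 9.51 with a median of 9.44 in old anti-miR-mix libraries. Young libraries were the highest, though both old groups reached into their range. Rian fell by 0.12 ± 0.03 on the log2 scale in old anti-miR-mix against young (adjusted p = 0.0417 by edgeR), a level of 0.920 times the young one. With Neat1 it made 2 of 9 members called in that comparison, against the 6.2% of all genes. This call was lost in 19 of 29 alternative fits, with adjusted p from 0.0521 to 0.107, while the size stayed between -0.14 and -0.09. Among the alternatives that lost it were the fit with the replicate number as a block, where the difference was -0.13 with an adjusted p of 0.0563, and all 6 fits that left out 1 young library. With the processing group as a factor Rian differed by -0.12 (adjusted p = 0.0399). For age the difference was -0.09 ± 0.04 with an adjusted p of 0.193, and for treatment -0.03 ± 0.03 with an adjusted p of 0.816, both in edgeR.

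Mirg (chr12:109729764-109749460, plus strand) ran from 5.10 to 5.46 log2 CPM with a median of 5.20 in young, from 4.94 to 5.26 with a median of 5.15 in old control and from 4.82 to 5.59 with a median of 5.02 in old anti-miR-mix libraries. The groups overlapped. Old control replicate 4 and old anti-miR-mix replicate 7, the libraries high in Malat1, were also the highest of their groups for Mirg. Its log2 fold changes were -0.13 ± 0.10, 0.01 ± 0.09 and -0.12 ± 0.09 for age, treatment and old anti-miR-mix against young, with adjusted p of 0.524, 0.987 and 0.526 in edgeR.

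Around these RNAs, 0 of 6 tested protein-coding genes of the Dlk1-Dio3 domain and its flanks passed in any comparison by edgeR, with 1, 1 and 0 at an unadjusted p under 0.05. Dlk1, a paternally expressed Notch-like ligand gene of the same domain, had the largest difference for age, 0.92 ± 0.27 with an adjusted p of 0.0703. Of 15 tested imprinted genes of other domains, 0 passed in any comparison, with 0, 2 and 1 at an unadjusted p under 0.05.

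The promoter sequences of 300 bases around the RefSeq start of each of the 3 RNAs are shown next. Differences between these windows do not show whether the 3 RNAs are made as 1 unit. The sequences are printed with CpG dinucleotides, the sites of DNA methylation by which imprinted domains are marked, in capitals.
Meg3, chr12:109540746-109541045, plus strand: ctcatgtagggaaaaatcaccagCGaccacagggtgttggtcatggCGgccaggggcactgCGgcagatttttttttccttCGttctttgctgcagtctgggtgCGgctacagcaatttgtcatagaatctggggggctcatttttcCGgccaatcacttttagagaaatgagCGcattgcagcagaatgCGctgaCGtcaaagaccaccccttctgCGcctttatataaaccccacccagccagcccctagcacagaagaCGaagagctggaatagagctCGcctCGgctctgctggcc
Rian, chr12:109603695-109603994, plus strand: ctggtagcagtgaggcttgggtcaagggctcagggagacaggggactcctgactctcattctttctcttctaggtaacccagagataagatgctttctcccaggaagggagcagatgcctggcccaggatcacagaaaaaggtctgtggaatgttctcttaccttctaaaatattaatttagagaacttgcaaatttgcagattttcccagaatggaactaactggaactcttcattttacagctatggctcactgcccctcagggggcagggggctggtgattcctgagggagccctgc
Mirg, chr12:109734731-109735030, plus strand: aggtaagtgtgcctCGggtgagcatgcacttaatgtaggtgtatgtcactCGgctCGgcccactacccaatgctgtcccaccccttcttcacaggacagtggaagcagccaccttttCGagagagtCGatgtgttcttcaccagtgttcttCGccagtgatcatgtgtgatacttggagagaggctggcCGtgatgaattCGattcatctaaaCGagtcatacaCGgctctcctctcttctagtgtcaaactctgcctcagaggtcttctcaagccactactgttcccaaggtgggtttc
The Meg3 window held 13 CpG, the Mirg window 10 and the Rian window 0, against a median of 7 over 32851 mouse promoters of this length. Searched on both strands, the Meg3 window held TATAAA (in 13.6% of all promoters), TGACGTCA (in 1.79%) and CCAAT (in 37.4%), the Mirg window CCAAT alone, and the Rian window none of the 3. These matches are letters in 1 window. The RefSeq start of Mirg lies inside the GENCODE gene, and its window holds mature arms of miR-668 and miR-485-3p. The Mirg window may therefore be part of the gene body and not a promoter. A second RefSeq start of Meg3 had 1 CpG in its window.

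Whether Meg3, Rian and Mirg moved together was asked across libraries. Over all 19, Meg3 and Mirg had a Pearson r of 0.71 (permutation p = 0.00072, 0.0121 adjusted over 36 pairs of the 9 RNAs) and a Spearman rho of 0.72 (permutation p = 0.00068, 0.0169 adjusted). Meg3 and Rian had an r of 0.55 (permutation p = 0.016, 0.143 adjusted) and a rho of 0.54 (permutation p = 0.0178, 0.128 adjusted). Rian and Mirg had an r of 0.47 (permutation p = 0.0433, 0.196 adjusted) and a rho of 0.57 (permutation p = 0.0116, 0.105 adjusted). After group means were subtracted, the r values were 0.74, 0.64 and 0.36 for Meg3 with Mirg, Meg3 with Rian and Rian with Mirg, with adjusted permutation p of 0.0584, 0.161 and 0.755. With group and processing group effects removed they were 0.72, 0.40 and 0.16, with adjusted permutation p of 0.0384, 0.388 and 0.796. Libraries were permuted within groups only there. This does not allow for the processing group effects removed, so these p may be too small. Without the 2 libraries farthest from the median of Meg3, old anti-miR-mix replicates 3 and 7, the relation of Meg3 with Mirg was 0.54 (adjusted permutation p = 0.191) and that of Meg3 with Rian 0.47 (adjusted permutation p = 0.248), so the first rests on those libraries for its call. Without young replicate 2 and old anti-miR-mix replicate 3, the farthest for Rian, the r of Rian with Mirg was 0.45 (adjusted permutation p = 0.227).

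Leaving out the 2 libraries high in Malat1 moved the 3 relations in different directions. In this choice, made after seeing the data, the r of Meg3 with Rian was 0.75 (adjusted permutation p = 0.009), that of Rian with Mirg 0.68 (adjusted permutation p = 0.026) and that of Meg3 with Mirg 0.56 (adjusted permutation p = 0.141). With group means also subtracted these 17 libraries gave 0.76 (adjusted permutation p = 0.0386), 0.43 (adjusted permutation p = 0.493) and 0.48 (adjusted permutation p = 0.438). Within the groups, as description over 6, 6 and 7 libraries, the r of Meg3 with Rian was 0.38, 0.41 and 0.75 in the young, the old control and the old anti-miR-mix group, that of Meg3 with Mirg -0.01, 0.83 and 0.88, and that of Rian with Mirg -0.37, 0.12 and 0.56.

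**Figure D4:**
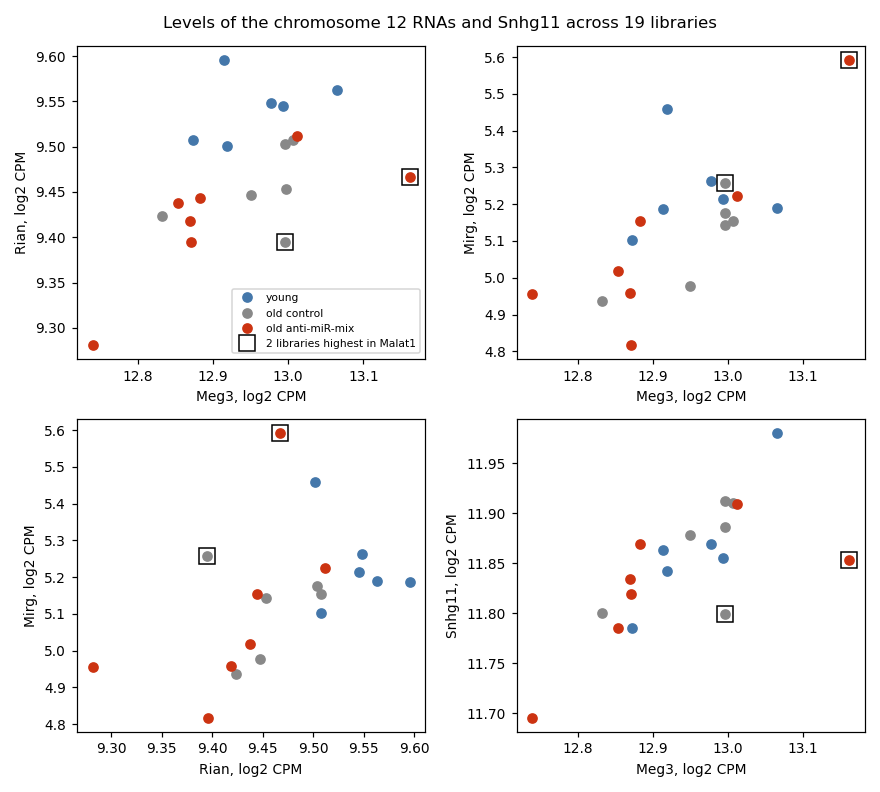
Pairs of RNA levels in log2 CPM on both axes, 1 point per library in the colour of its group, with squares around the 2 libraries highest in Malat1. Meg3 and Snhg11 form the tightest line apart from the squared libraries, and the squared old anti-miR-mix library is the highest for both Meg3 and Mirg.

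Snhg11, which lies on chromosome 2 (chr2:158375638-158386145, plus strand), correlated with Meg3 and with Rian over all 19 libraries. It is annotated as protein-coding in GENCODE, though it is known as a snoRNA host RNA. Over 19 libraries its r was 0.72 with Meg3 (permutation p = 0.00056, 0.0121 adjusted) and 0.71 with Rian (permutation p = 0.00101, 0.0121 adjusted). These and Meg3 with Mirg were the 3 of 36 pairs that passed by Pearson's r. Spearman's rho was 0.71 for Snhg11 with Meg3 (permutation p = 0.00094, 0.0169 adjusted) and 0.61 with Rian (permutation p = 0.00637, 0.0764 adjusted), so that the relation with Rian did not pass by rank. Both calls were lost when old anti-miR-mix replicate 3 alone was left out. Without that library the r with Meg3 was 0.60 (adjusted permutation p = 0.149) and the r with Rian 0.54 (adjusted permutation p = 0.169), while each of the other 18 left out alone kept both. With group means subtracted the values were 0.70 with Meg3 (adjusted permutation p = 0.0425) and 0.81 with Rian (adjusted permutation p = 0.00864), and only these 2 pairs passed. With processing group effects also removed they were 0.63 and 0.78 with adjusted permutation p of 0.0416 and 0.00144, which may be too small because libraries were permuted within groups only. Without the 2 libraries high in Malat1 the r of Meg3 with Snhg11 was 0.93, at a permutation p of 1e-05, the smallest that 100000 resamples can give (adjusted p = 0.00036), and that of Rian with Snhg11 was 0.70 (adjusted permutation p = 0.026). Without the 2 libraries farthest from the Rian median the r of Rian with Snhg11 fell to 0.60 (adjusted permutation p = 0.127). Without those farthest from the Meg3 median, which include old anti-miR-mix replicate 3, the r of Meg3 with Snhg11 was 0.78 (adjusted permutation p = 0.0101). All genes of a library share its normalisation factor. On library totals without these factors the 3 pairs gave 0.73 for Meg3 with Mirg, 0.76 for Meg3 with Snhg11 and 0.74 for Rian with Snhg11. Genes of a library still share its total there, so this does not remove a shared scaling.

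Among the 12779 other genes with a mean of at least 100 reads, ranked by r with group means subtracted, Snhg11 was at place 3 for Rian and Meg3 at place 85. For Meg3, Mirg was at place 67, Snhg11 at 132 and Rian at 297. The 5 genes most like Meg3 were A230006K03Rik, a lincRNA of chromosome 7 (r = 0.89), B930095G15Rik, an intronic RNA of chromosome 14 (0.87), Ccdc57 (0.86), the mTOR pathway suppressor gene Tsc1 (0.85) and the kinesin gene Kif21b (0.84), none of them on chromosome 12. Without the 2 libraries high in Malat1 their r values were 0.77, 0.85, 0.76, 0.86 and 0.68. These ranks are descriptions over 19 libraries.

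**Figure D5:**
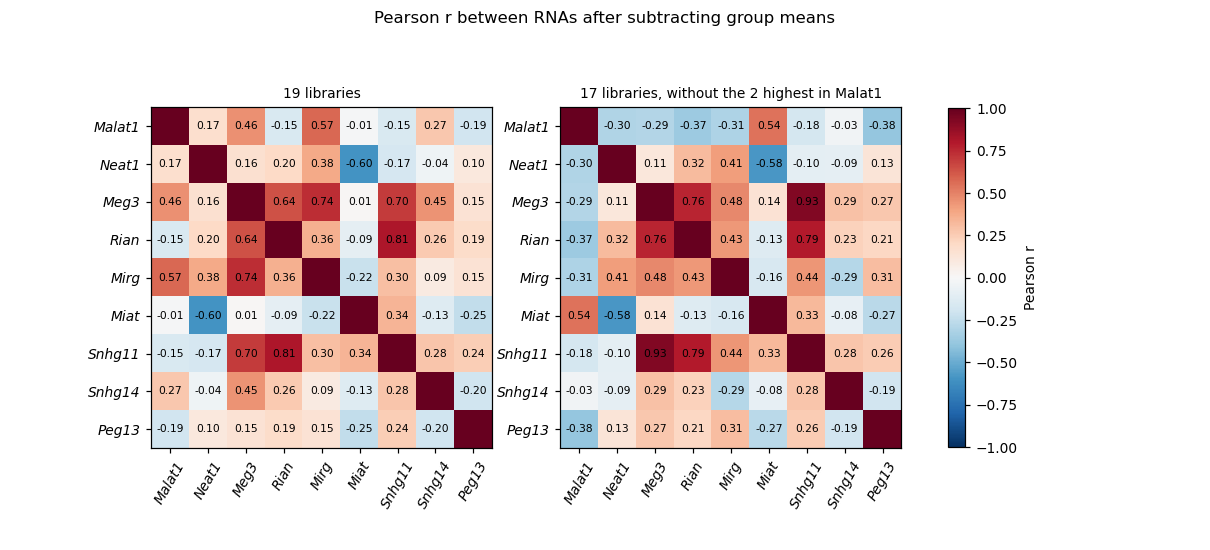
Pearson r between the levels of the 9 RNAs after subtracting group means, over 19 libraries (left) and over 17 without the 2 highest in Malat1 (right), from -1 (blue) to 1 (red). Meg3, Rian and Snhg11 form a block in both, while the r of Malat1 with Mirg is 0.57 on the left and -0.31 on the right.

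The ratio of 2 RNAs within a library does not depend on how libraries are scaled. Reads of Meg3 were 9.98 to 12.9 times those of Rian over the 19 libraries and 176 to 266 times those of Mirg. The mean log2 ratio of Meg3 to Rian was 3.41 ± 0.06 in young, 3.51 ± 0.06 in old control and 3.49 ± 0.09 in old anti-miR-mix (SD). Old control was above young by 0.09 (exact permutation test, two-sided, p = 0.0346, 0.205 adjusted over 9 tests). The log2 ratio of Meg3 to Mirg was above young by 0.13 in old control (exact permutation p = 0.0455, 0.205 adjusted). The other 7 differences lay between -0.05 and 0.09 with exact p from 0.105 to 0.909. None of the 9 passed after adjustment, in the main test or in any of the alternatives run. With the replicate number as a block, the smallest possible exact permutation p was 0.03125. The age differences of Meg3 to Rian and of Meg3 to Mirg both reached it (0.141 adjusted). No single ratio could pass adjustment over 9 tests at that p, so the block could not decide on them. Permuted within processing groups, where the smallest possible p for age is 0.037, the 2 age differences were 0.09 (exact p = 0.111) and 0.07 (exact p = 0.0556).

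The RNAs of these loci also carry miRNAs. By RefSeq coordinates on the same strand, 26 mature arms lie within Mirg, 6 within Rian and 3 within Meg3, with 34 different seeds among the 35 arms. None shares its seed with the 3 inhibited miRNAs. The 1 repeated seed belongs to a pair of Mirg arms, shown with 1 arm each of Meg3 and Rian:
miR-453, in Mirg: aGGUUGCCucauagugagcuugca
miR-496a-5p, in Mirg: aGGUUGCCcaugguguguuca
miR-770-5p, in Meg3: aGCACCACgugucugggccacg
miR-370-3p, in Rian: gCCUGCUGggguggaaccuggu
Mature miRNAs are too short for these libraries and were not measured in them.

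Of the other 4 RNAs, none was called in any comparison. Miat (chr5:112213228-112229395, minus strand) had medians of 9.57, 9.53 and 9.55 log2 CPM in the 3 groups, youngest first and treated last, and its log2 fold changes ran from -0.06 to -0.03. On its opposite strand lies Gm26953, which shares 2260 of its exonic bases and had a mean of 21.8 reads against 23670 for Miat. Snhg11 had medians of 11.86, 11.88 and 11.83 log2 CPM, with log2 fold changes from -0.04 to 0.00. Snhg14 (chr7:59307924-59975759, minus strand) had medians of 7.28, 7.26 and 7.33 log2 CPM, and 3 old anti-miR-mix libraries, replicates 1, 3 and 4, were at 7.01, 7.13 and 7.14, below all others. It runs opposite to Ube3a, with a mean of 4287 reads, and shares 1803 exonic bases with it. Since the kit keeps no strand, reads on those bases cannot be assigned to either gene and may be counted for neither. Peg13 (chr15:72805600-72810324, minus strand) had medians of 8.51, 8.43 and 8.38 log2 CPM, with log2 fold changes of -0.06 ± 0.05, -0.02 ± 0.05 and -0.09 ± 0.05. For these 4 RNAs the intervals of all 3 comparisons lay between -0.18 and 0.09, which bounds a difference at a small size and does not show that there was none. In the edgeR fit, treatment called 0 of the 9 RNAs, against 0.669% of all genes, and 1 of 9, Neat1, had an unadjusted p under 0.05. DESeq2 also called 0 of 9 there.

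Genes of the same domains and families were looked up too. Their calls stand against 2.67% of all genes for age, 0.669% for treatment and 6.2% for old anti-miR-mix against young. Of 7 tested Snrpn-Ube3a domain genes, Mkrn3, a paternally expressed ubiquitin ligase gene, was lower in old anti-miR-mix than in young (fell by 0.66 on the log2 scale, adjusted p = 0.0402 by edgeR). Of 4 genes around Peg13 and of 3 Miat-binding splicing factor genes, 0 passed in any comparison, with 1 and 0 at an unadjusted p under 0.05, the 1 being Ago2 in old anti-miR-mix against young. Of 12 other snoRNA host genes, Gas5, a growth arrest RNA, was higher than in young in old control (0.19 ± 0.05, adjusted p = 0.0473) and in old anti-miR-mix (0.17 ± 0.05, adjusted p = 0.0352). Of 14 other long non-coding RNAs of the brain, 0 passed in any comparison by edgeR, with 2, 1 and 1 at an unadjusted p under 0.05.

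The tissue held the markers of CA1 in all groups. The 5 CA1 pyramidal markers summed to 390 to 607 CPM over the 19 libraries, against 80.2 to 99.6 CPM for 4 CA3 markers and 44.0 to 109 CPM for 4 dentate granule markers. Of 5 neuron markers, Stmn2 was lower in old anti-miR-mix than in young (fell by 0.15 on the log2 scale, adjusted p = 0.0398 by edgeR), and of the CA1 markers Wfs1 was (fell by 0.36 on the log2 scale, adjusted p = 0.0366). In that comparison the median log2 fold change was 0.09 for the 5 CA1 markers, opposite in sign to Wfs1, and -0.06 for the 5 neuron markers. Interneuron, CA3, dentate, oligodendrocyte precursor, endothelial, pericyte, meningeal and choroid plexus markers gave 0 calls by edgeR, with 11 single results at an unadjusted p under 0.05 over the 3 comparisons. Of 8 tested mitochondrially encoded messenger RNAs, mt-Co1 and mt-Nd5 were higher in old control than in young, by 0.21 and 0.28 log2 units. At an unadjusted p under 0.05 in edgeR were 7 of 8 for age, 0 for treatment and 6 for old anti-miR-mix against young. The median log2 fold changes of the 8 were 0.21, -0.06 and 0.18 in the same order. The part of these markers and messenger RNAs in the results on the 9 RNAs was not tested.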

How the data were processed

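CA1 RNA of 19 libraries was measured, grouped by their descriptions into 6 old control, 7 old anti-miR-mix and 6 young libraries. Titles of control-oligonucleotide libraries, young or old, open with the experiment name anti-miR-mix, which is not their treatment. Per the labels and the study's methods, the authors made poly(A) libraries with an unstranded TruSeq v2 kit, sequenced 50-base single-end reads, checked them with FastQC 0.11.5, aligned them with STAR 2.5.2b to mm10 and counted reads per gene with featureCounts (Subread 1.5.1). Deposited raw counts per Ensembl gene were the main data. The deposited log2 values, log2(CPM + 1) made by the authors with a term for a number of 1 to 4 per library (here the processing group) removed, served as an alternative. The source of that number is not given in the sources used here. No column of per-sample values was left unassigned. Strand and multi-mapping options are not given in the sources used here.

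Depth was 26653511 to 38908947 reads. Genes reaching 5 reads in no less than 50% of libraries (19286) were normalised by TMM and tested with the quasi-likelihood test of edgeR 4.0.16 in R 4.3.3, all 3 groups in 1 fit, with Benjamini-Hochberg adjustment over all genes and a threshold of 0.05, which follows the study's filter and threshold. Intervals are 95% normal intervals from the SE. Log2 CPM used a prior count of 2. Correlations and ratios were tested by two-sided permutation over libraries (100000 resamples, or exact). Symbols and coordinates came from GENCODE M21 on GRCm38, where 19225 of the tested genes matched. Scripts were tested on simulated data. Nothing read here says that libraries share an animal, and p-values measure the spread between these libraries.

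All 9 RNAs are named. Of other lists, counts are given and up to 4 called genes by lowest p (some genes this rule would name are not reported here), and for Meg3 and Malat1 the 5 genes of highest r. The 9 RNAs and the lists were chosen with earlier results of these data known. Alternatives were edgeR with DESeq2 size factors, library totals, DESeq2 1.42.0, no filter, a block on replicate number, the processing group as factor or linear term, old control replicates 5 and 6 as 1 library (their counts differed by a chi-square of 2.18 per degree of freedom, against 6.10 or more for other pairs of a group), limma 3.58.1 on the log2 values, and each library left out. Old control replicate 4 and old anti-miR-mix replicate 7 were left out together as a choice made after seeing the data.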

Additional observations from a re-analysis of the deposited data

Results flagged for a closer look

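Dixon's test asked in each group whether the highest or lowest library of a quantity stood apart. It was run on the 9 RNAs and the 3 ratios in 3 groups, 36 sets in all, and about 1 in 20 such sets is set apart by chance, while 7 values were.

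Malat1 was high in old control replicate 4 (11.38 log2 CPM, where the rest of its group reached 10.07) and in old anti-miR-mix replicate 7 (11.66 log2 CPM). These libraries also held the most nuclear ribosomal RNA reads, 0.184% and 0.200% of all reads. Old anti-miR-mix replicate 7 was set apart in 2 ratios as well, with a log2 ratio of Meg3 to Rian of 3.69 and of Rian to Mirg of 3.88.

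The remaining 3 were old control replicate 2, lowest of its group for Meg3 at 12.83 log2 CPM, young replicate 1, highest of its group for Snhg14 at 7.41 log2 CPM, and young replicate 4, with the lowest log2 ratio of Rian to Mirg in its group, 4.04.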

How the results depend on the processing

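Over 29 alternatives, 723 of 783 fitted changes of the 9 RNAs kept their direction and side of the threshold, 35 changed sign, with adjusted p of 0.51 or more, 25 lost their call and 0 gained one. Age called Neat1 in the main fit and 0 RNAs without old control replicate 4 and old anti-miR-mix replicate 7 together (Neat1 0.50, adjusted p = 0.0678). Leaving out 1 library gave 0 to 1 RNAs for age, 0 for treatment and 1 to 2 for old anti-miR-mix against young. That comparison called 1 RNA, Neat1, and not Rian on library totals, without a filter, with old control replicates 5 and 6 as 1 library and with limma on the deposited log2 values.

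With the replicate block it also called 1 RNA. Same-numbered libraries deviated together in some pairs and not in others: the correlations of their deviations ran from -0.46 to 0.44, with 9 of 18 above 0.1. Without a comparison to differently numbered libraries these values do not show whether the numbers pair libraries. The block gave sign changes for treatment in Malat1 (-0.0503), Mirg (-0.0847) and the log2 ratio of Rian to Mirg (0.0461), and with it the co-movement of Meg3 and Mirg was 0.62 (adjusted p = 0.0825). It changed no other call on the fitted changes, on the ratios or on the pairs among Meg3, Rian and Mirg, though no single ratio could pass with the block. Over all 36 pairs, 3 passed by Pearson's r with the block, the same number as in the main test, so a pair outside these gained a call. For correlations with the block, libraries were permuted within groups only. This does not allow for the replicate effects removed, so those p may be too small.

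Other sign changes for age were Malat1 at -0.14 and Snhg11 at 0.0113 without the 2 libraries, and Meg3 at -0.00848 on library totals, -0.0392 with processing group as a factor, -0.0119 with limma and -0.000636 without the 2 libraries. For treatment they were Mirg at -0.0543 and the log2 ratio of Rian to Mirg at 0.00405 without the 2 libraries, Miat at 0.00546 with processing group as a factor, and Peg13 at 6.26e-05 with limma. Permuted within processing groups, the log2 ratio of Meg3 to Rian for treatment was 0.0034 and that of Rian to Mirg for age -0.0121. The cause of these changes was not tested.

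Leaving out 1 library moved the age changes of Malat1 between -0.14 and 0.33, Meg3 between -0.00487 and 0.0325, Miat between -0.0706 and 0.0073, Snhg11 between -0.0116 and 0.0264 and Snhg14 between -0.0413 and 0.00594. It moved the treatment changes of Malat1 between -0.16 and 0.57, Mirg between -0.0857 and 0.0529, Miat between -0.0489 and 0.0148, Snhg14 between -0.0524 and 0.00351 and Peg13 between -0.0519 and 0.00252. The log2 ratio of Meg3 to Rian for treatment ran from -0.0513 to 0.00138, and that of Rian to Mirg from -0.0134 to 0.0815 for age, -0.0709 to 0.0461 for treatment and -0.0413 to 0.0856 for old anti-miR-mix against young. The co-movement of Meg3 and Rian ran from 0.34 to 0.66 (called without young replicate 2 or old anti-miR-mix replicate 7), that of Meg3 and Mirg from 0.58 to 0.81 (call lost without old anti-miR-mix replicate 7, adjusted p = 0.0874) and that of Rian and Mirg from 0.41 to 0.59. By Spearman's rho the call on Meg3 and Mirg was also lost without old anti-miR-mix replicate 3, 4 or 7 (rho from 0.67 to 0.70). The r of Snhg11 ran from 0.60 to 0.86 with Meg3 and from 0.54 to 0.77 with Rian.

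The co-movement of Meg3 and Mirg also lost its call with group means subtracted (0.74), without the 2 libraries (0.56, or 0.48 with group means subtracted) and without the 2 farthest libraries (0.54). That of Meg3 and Rian gained a call without the 2 libraries (0.75, or 0.76 with group means subtracted), and that of Rian and Mirg did at 0.68.

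Counts reached 862 reads or more per library for every RNA, so depth did not limit them. One count per gene cannot separate transcripts of an RNA, and poly(A) selection measures the polyadenylated part.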
